A study of Mus musculus with 20 samples.

Results

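The comparison described here sets the left ventricle of chow-fed iKO mice against that of chow-fed WT mice, and follows the pathways other than fatty acid oxidation. It compares 10 of the 20 libraries of the study, 5 iKO (RT2, RT4, RT6, RT7 and RT9) and 5 WT (RT1, RT3, RT5, RT8 and RT10). Each is from a different male mouse. The other 10 libraries entered the filter and the estimate of spread. Per-library values below are listed in that order of libraries. All mice carried floxed Acacb alleles. The iKO mice also carried MerCreMer, a Cre recombinase flanked by mutated oestrogen receptor domains that enters the nucleus with tamoxifen, and the mice called WT here are littermates with the floxed alleles and no Cre. Aged 8 weeks, both genotypes received tamoxifen on 5 days at 20 mg/kg, and from 4 weeks later they ate chow for 16 weeks. The other 10 mice, 5 iKO and 5 WT, ate a high-fat diet (HFD) for the same 16 weeks. The promoter that drives the Cre is not given in the sources used here, and no group carries the Cre with intact Acacb alleles, so loss of ACC2 and effects of the Cre or of its insertion cannot be told apart.

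Acacb encodes ACC2, the acetyl-CoA carboxylase on the outer mitochondrial membrane of heart and skeletal muscle. Its product, malonyl-CoA, blocks the carnitine shuttle that carries long-chain fatty acids into mitochondria, so ACC2 is a brake on fatty acid oxidation. The adult heart burns mostly fatty acids, with glucose, lactate, ketone bodies and amino acids as further fuels, and its fatty acid enzymes are controlled by the nuclear receptor PPAR-alpha, which fatty acids activate. Fuel use, membrane lipids, ion channels and the making of ribosomes share the same cells, and the gene groups below follow those roles.

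Expression was given as FPKM, reads scaled to transcript length and library size, and was compared as log2(FPKM + 1) with limma. A gene was called when its Benjamini-Hochberg adjusted p lay below 0.05. Of the 25052 genes in the tables, 12775 reached 0.5 FPKM in at least 5 libraries and were tested. The call covered 136 genes (1.06% of those tested), 44 of them higher in iKO (0.344%) and 92 lower (0.72%). Of the lower genes, 29 were Acacb and members of the list of fatty acid oxidation genes and PPAR-alpha targets, which leaves 44 higher genes, Esr1 among them, and 63 lower genes outside it. Of these 107 genes, 28 were in at least 1 of 49 pathway lists (8 higher, 20 lower), and the other 79 were in none. The fatty acid list may not hold every PPAR-alpha target, and whether genes outside it respond to PPAR-alpha was not tested. At an unadjusted p below 0.05, 1723 genes would have passed.

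The lower calls held better than the higher ones when single libraries were left out. Outside the fatty acid list, 39 of the 63 lower genes and 12 of the 44 higher genes passed every time when each of the 10 chow libraries was dropped in turn. The number of higher calls was 18 without RT4, 25 without RT7, 21 without RT3, 21 without RT5, 23 without RT8 and 22 without RT10. It was 35 without RT2, 46 without RT6, 60 without RT9 and 61 without RT1. RT4 and RT7 stood apart from the other iKO libraries in composition. Transcripts of mitochondrial protein genes made up 29.1% and 29.2% of summed FPKM in them, against 31.5% to 32.8% in the other iKO libraries and 31.6% to 32.6% in the WT libraries. Without both libraries, 9 genes were called higher and 65 lower. The median difference of all genes tested was 0.05 on the log2 scale, with 70.8% of genes above 0. Scaling by median of ratios brought that median to -0.001, and gave 18 higher and 130 lower calls. Upper-quartile scaling gave 16 higher and 133 lower calls. The estimated reads assigned to genes were 12.5 to 24.1 M in iKO libraries and 19.4 to 22.8 M in WT libraries, with RT7 the lowest.

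The deletion and the transgene appeared in every library as labelled. Acacb had 8.55, 9.46, 9.17, 9.19 and 8.37 FPKM in iKO hearts, against 37.50, 41.07, 39.27, 37.42 and 37.77 FPKM in WT hearts, 23.2% of the WT mean. Esr1, the oestrogen receptor gene whose ligand-binding sequence the MerCreMer fusion carries, had 766 to 1617 FPKM in iKO hearts, against 1.18 to 1.84 FPKM in WT hearts. Reads of the transgene and of the mouse's own Esr1 cannot be told apart in these values. Acaca, which encodes the cytosolic carboxylase ACC1, averaged 2.54 ± 0.33 FPKM in iKO hearts and 2.17 ± 0.33 FPKM in WT hearts (SD, n = 5 each), and the groups overlapped (limma adjusted p = 0.389). Myl2, the ventricular myosin light chain, was high in all libraries, at 11142 to 13221 FPKM in iKO hearts and 11528 to 12208 FPKM in WT hearts, and none of the 12 cardiomyocyte markers was called. Atrial markers were high in iKO RT4 and WT RT1, where Myl4 had 30.96 and 138.18 FPKM, against 0.40 to 1.61 FPKM in the other chow libraries.

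Ion channel genes gave some of the largest differences outside lipid metabolism. Of 6 tested sodium channel genes 2 were called lower, as were 1 of 27 potassium channel genes and 1 of 44 calcium handling genes, and none of the 3 lists held a gene called higher. Over all genes tested, 0.72% were called lower. Scn4b encodes a beta subunit that modifies the gating of voltage-gated sodium channels (chromosome 9, 45138395 to 45154152, GRCm38). Its level was 9.74, 7.73, 7.40, 5.74 and 7.77 FPKM in iKO hearts, against 14.89, 20.57, 16.81, 17.52 and 19.67 FPKM in WT hearts. The groups were well separated, and the log2 difference was -1.13 ± 0.11 (SE, limma adjusted p = 1.25e-06). Scn4a, the pore-forming sodium channel subunit best known from skeletal muscle, had 3.61 to 4.78 FPKM in iKO hearts, against 6.02 to 8.61 FPKM in WT hearts (log2 difference -0.58 ± 0.10, limma adjusted p = 0.00266). Both channel genes were below every WT heart in every iKO heart.

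Kcnv2 encodes a silent potassium channel subunit that alters the channels it joins. It had 1.13, 0.62, 1.33, 0.94 and 1.35 FPKM in iKO hearts, against 2.07, 2.44, 2.39, 2.13 and 2.17 FPKM in WT hearts. The iKO mean was 47.9% of the WT mean (log2 difference -0.66 ± 0.10, limma adjusted p = 0.000882). Cacna1s, the pore-forming subunit of the skeletal muscle L-type calcium channel, had 1.65 to 2.87 FPKM in iKO hearts, against 3.53 to 4.52 FPKM in WT hearts (log2 difference -0.58 ± 0.12, limma adjusted p = 0.0123). Its call was lost when RT4 was left out together with RT1 or RT7. Kcnip2, a potassium channel partner in the list of cardiac stress genes, had 76.94 to 99.63 FPKM in iKO hearts and 69.15 to 76.79 FPKM in WT hearts and did not pass (limma adjusted p = 0.0597). No gene was called in the lists for pacemaker and gap junction channels (7 tested), sarcomere and Z-disc (48), intercalated disc (17) or cardiac stress (15). Over all genes tested 1.06% were called, so lists of this size cannot be told from that share.

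**Figure D1:**
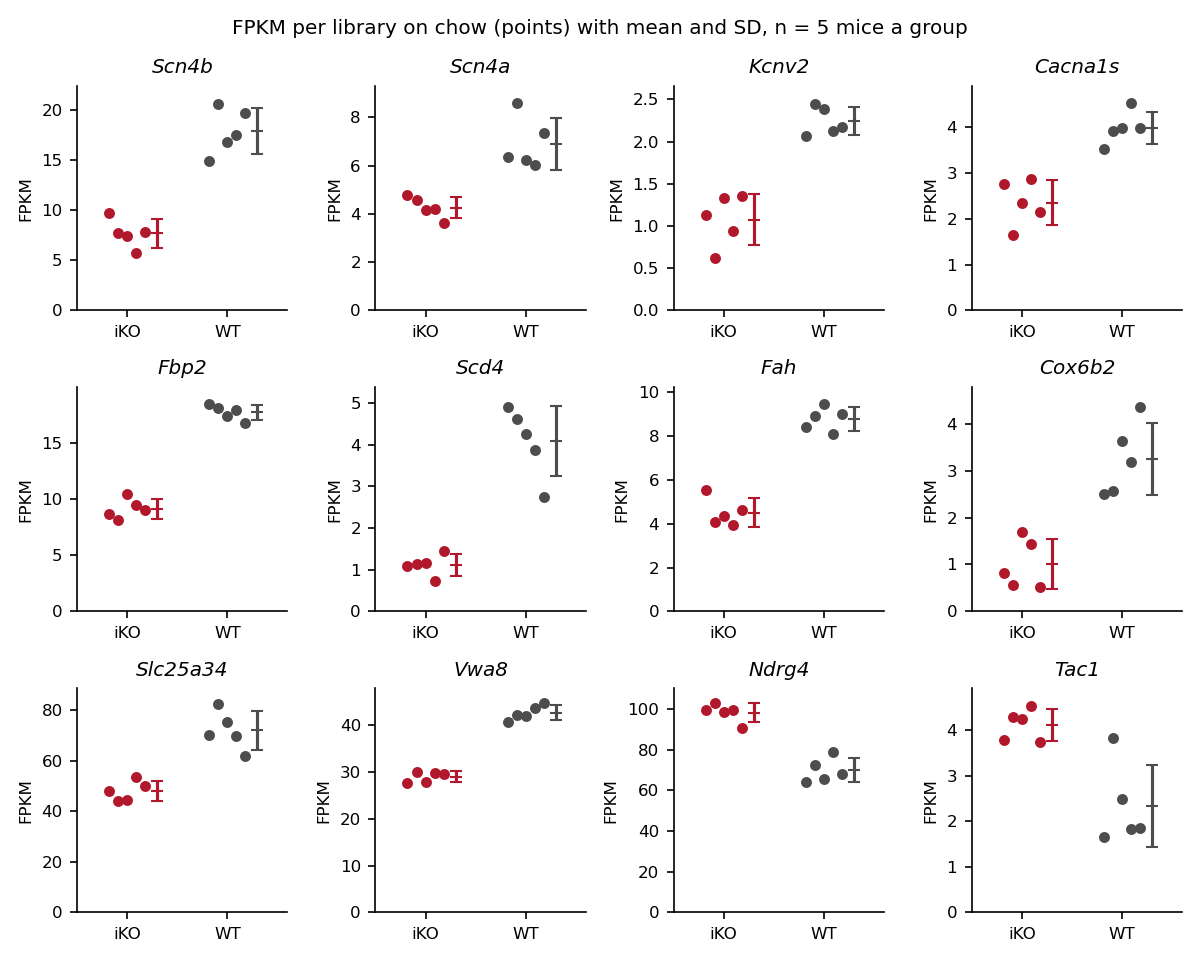
FPKM of 12 genes on chow in each of 5 iKO libraries (red) and 5 WT libraries (grey), with the mean and SD beside the points and every axis starting at 0. Each of the 10 genes that fell has all iKO points below all WT points, Ndrg4 has all iKO points above, and Tac1 overlaps through the WT library at 3.82 FPKM.

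The lists of glucose metabolism and its signalling held few calls, where 1.06% of all tested genes were called. Counts this small cannot tell a list from that share. The called gene with the largest difference acts in the reverse direction of glycolysis. Fbp2, the muscle fructose bisphosphatase, which opposes phosphofructokinase and serves the rebuilding of glycogen from lactate, was the only called gene of 37 tested for glucose uptake, glycolysis and gluconeogenesis (chromosome 13, 62836877 to 62858422, GRCm38). It had 8.67, 8.08, 10.42, 9.46 and 8.99 FPKM in iKO hearts, against 18.47, 18.08, 17.36, 17.86 and 16.75 FPKM in WT hearts. The gap between the groups was several times the spread within either, at 51.5% of the WT mean (log2 difference -0.89 ± 0.06, limma adjusted p = 8.41e-09). The median log2 difference of the 37 genes was 0.07, near the 0.05 of all genes. Pgm2, a phosphoglucomutase, was the called member of 26 glycogen genes and averaged 70.2 ± 4.6 FPKM in iKO hearts and 80.6 ± 2.7 FPKM in WT hearts (SD, n = 5 each, limma adjusted p = 0.0187). That call was lost without RT3, RT6, RT9 or RT10. None of the 14 genes of pyruvate import and pyruvate dehydrogenase control was called. The one with the smallest p, Pdhb, a pyruvate dehydrogenase subunit, had 391.79 to 406.95 FPKM in iKO hearts and 355.55 to 370.86 FPKM in WT hearts (limma adjusted p = 0.0726). None of the 26 insulin signalling genes or 14 AMPK genes was called.

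The 300 bases around the start sites of Fbp2, Scn4b and Scd4 are shown because the differences of these genes on chow and on HFD were themselves different, as described further on. Vwa8 met the same test, and its window, which held none of the motifs searched, is not printed. Sequences are RefSeq's, on GRCm38.p6, from 250 bases before to 50 bases after RefSeq's start, in the direction of the gene. RefSeq's start lies inside the gene as GENCODE draws it, 229 bases downstream of GENCODE's start in Scn4b, 234 in Scd4 and 22 in Fbp2, so most of the Scn4b and Scd4 windows lies within GENCODE's gene. Capitals mark an E-box (CACGTG), the letters that circadian and carbohydrate-responsive factors of the basic helix-loop-helix family can bind.
Fbp2 promoter, chr13:62858351-62858650, minus strand: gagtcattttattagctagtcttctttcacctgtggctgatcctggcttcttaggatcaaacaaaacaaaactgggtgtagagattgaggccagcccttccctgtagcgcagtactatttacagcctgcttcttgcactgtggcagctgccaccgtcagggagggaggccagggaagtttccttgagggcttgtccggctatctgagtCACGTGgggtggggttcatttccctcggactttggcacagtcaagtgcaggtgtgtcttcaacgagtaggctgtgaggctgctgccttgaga
Scn4b promoter, chr9:45138374-45138673, plus strand: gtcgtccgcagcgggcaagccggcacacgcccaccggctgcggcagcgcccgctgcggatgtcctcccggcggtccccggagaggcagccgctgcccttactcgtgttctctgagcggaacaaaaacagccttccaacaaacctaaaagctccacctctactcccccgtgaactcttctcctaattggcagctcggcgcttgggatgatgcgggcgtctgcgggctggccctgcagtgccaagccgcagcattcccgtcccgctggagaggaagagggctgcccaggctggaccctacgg
Scd4 promoter, chr19:44333076-44333375, plus strand: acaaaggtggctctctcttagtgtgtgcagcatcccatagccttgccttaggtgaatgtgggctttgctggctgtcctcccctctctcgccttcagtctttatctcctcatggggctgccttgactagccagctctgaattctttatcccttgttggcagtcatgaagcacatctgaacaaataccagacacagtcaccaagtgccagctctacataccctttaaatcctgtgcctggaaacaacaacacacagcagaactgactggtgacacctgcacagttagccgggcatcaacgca
The Fbp2 window holds an E-box 42 bases before RefSeq's start. The other 3, Vwa8 included, hold none of the 4 motifs searched on both strands, which were the E-box, AGGTCA followed after 1 base of any kind by another AGGTCA (direct repeat 1, the form PPAR-alpha binds), TCAAGGTCA (the oestrogen-related receptor element) and TGACGTCA (the cAMP response element). Among all 32851 RefSeq promoter windows, 7.15% held an E-box, 0.423% an oestrogen-related receptor element, 0.0396% a direct repeat 1 and 1.79% a cAMP response element. Of the called genes outside the fatty acid list with a matched window, 4 of 52 lower genes (7.69%) and 8 of 35 higher genes (22.9%) held an E-box. The share was 11.8% of the 9500 tested genes with a matched window. Here a gene counted once if any of its windows held the motif, unlike the shares of windows above. None of these 52 and 35 genes held the strict direct repeat 1, and 1 lower gene held the oestrogen-related receptor element. These counts describe letters in the windows and say nothing of binding.

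Genes that build and remodel lipids were lower in iKO hearts in places, with 1 or 2 called members in a list, beside 0.72% of all genes called lower. Scd4 encodes a stearoyl-CoA desaturase expressed in mouse heart, which puts the double bond into saturated fatty acids. It had 1.09, 1.13, 1.17, 0.72 and 1.45 FPKM in iKO hearts, against 4.90, 4.62, 4.26, 3.87 and 2.75 FPKM in WT hearts. This was the lowest log2 difference of any called gene but Acacb (-1.26 ± 0.12, limma adjusted p = 7.07e-07), and the groups were apart in all libraries. Because desaturase paralogues resemble each other, reads could be split between them in the authors' counting. Scd4 was the only called gene of 27 tested for lipogenesis, desaturation and elongation, with a list median of 0.05, and none of 24 sterol synthesis genes was called.

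Of 25 genes of triglyceride synthesis, lipid droplets and lipolysis, 2 were called lower and none higher, with a list median of -0.04. Gpam, the mitochondrial acyltransferase that starts glycerolipid synthesis, had 42.41, 39.66, 36.47, 38.46 and 44.82 FPKM in iKO hearts, against 48.25, 65.23, 55.17, 50.60 and 54.37 FPKM in WT hearts (limma adjusted p = 0.0228). Its call was lost without RT3, RT4, RT5, RT6, RT7 or RT10, with adjusted p up to 0.187 over all alternatives. Agpat3, which adds the next acyl chain, had 39.53 to 46.49 FPKM in iKO hearts, against 50.82 to 58.66 FPKM in WT hearts (log2 difference -0.32 ± 0.06, limma adjusted p = 0.00469), and was called in every alternative run. Among 27 phospholipid and cardiolipin genes 2 were called lower, Lpcat3 and Hadha, the second of which also belongs to beta-oxidation. Lpcat3, which loads polyunsaturated fatty acids onto lysophosphatidylcholine, had 7.17 to 8.36 FPKM in iKO hearts, against 9.75 to 11.93 FPKM in WT hearts (log2 difference -0.42 ± 0.06, limma adjusted p = 0.000516). None of 21 sphingolipid genes was called, where 1.06% of all tested genes were.

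Several further lipid and coenzyme genes outside the lists are named here after their values were seen. Their place outside the fatty acid list does not show that they are independent of PPAR-alpha, which was not tested. Acsf2, a mitochondrial acyl-CoA synthetase family member named by the rule of largest decreases, had 8.18 to 11.31 FPKM in iKO hearts, against 13.68 to 16.09 FPKM in WT hearts (limma adjusted p = 0.000194). Hsdl2, a peroxisomal dehydrogenase-like protein, averaged 84.8 ± 7.5 FPKM in iKO hearts and 110.4 ± 4.4 FPKM in WT hearts (SD, n = 5 each, limma adjusted p = 0.000288). Dbi, the acyl-CoA binding protein that carries acyl-CoA in the cytosol, had 95.96 to 105.90 FPKM in iKO hearts, against 120.62 to 127.49 FPKM in WT hearts (limma adjusted p = 0.0033). The groups did not overlap for any of these genes, which was the case for 142 genes lower in iKO (1.11% of those tested). Pank1, which makes the first committed step of coenzyme A synthesis, was at 74.6% of the WT mean (limma adjusted p = 0.00263). Coq3, a methyltransferase of ubiquinone synthesis, was at 82.1% (limma adjusted p = 0.00159). Mttp, the microsomal triglyceride transfer protein, was at 67.7% (limma adjusted p = 0.0106), and Retsat, a retinol saturase, at 74.8% (limma adjusted p = 0.0106). The calls of Pank1 and Mttp were lost without RT4 and RT7, and that of Retsat with the 10 chow libraries only and without RT1 and RT4. Vldlr, a receptor for triglyceride-rich lipoproteins, had 41.86 to 47.76 FPKM in iKO hearts, against 60.51 to 66.42 FPKM in WT hearts (limma adjusted p = 0.000741).

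Alox5, the lipoxygenase that makes leukotriene precursors from arachidonic acid, fell by 0.60 on the log2 scale (limma adjusted p = 0.0114) although the groups overlapped. It had 2.34, 2.45, 2.50, 4.18 and 2.0 FPKM in iKO hearts, against 4.46, 5.29, 4.62, 3.58 and 4.74 FPKM in WT hearts. The high iKO value is that of RT7, and the call was lost with the 10 chow libraries only and without RT1 and RT4. Ephx2, the soluble epoxide hydrolase that breaks down epoxides of arachidonic acid, was 1 of 3 called members of 52 antioxidant and glutathione genes. It had 92.34, 87.39, 85.32, 90.94 and 87.27 FPKM in iKO hearts, against 118.31, 121.51, 117.14, 117.11 and 114.89 FPKM in WT hearts (log2 difference -0.41 ± 0.04, limma adjusted p = 1.05e-06). The other 2 were catalase (Cat), which clears hydrogen peroxide in peroxisomes, and Gstm6, a glutathione transferase of a family of close paralogues. Cat averaged 75.4 ± 3.7 FPKM in iKO hearts and 86.0 ± 2.4 FPKM in WT hearts (SD, n = 5 each, limma adjusted p = 0.0357), a call lost without RT3, RT4, RT5, RT6, RT7, RT8 or RT10. Gstm6 was low in both groups, at 0.91 to 1.20 FPKM in iKO hearts and 1.30 to 2.09 FPKM in WT hearts (limma adjusted p = 0.0215), and its call was lost without RT1, RT3, RT4, RT6 or RT10. The list's median was 0.05 and no member was called higher. Over all genes tested, 0.72% were called lower and 0.344% higher.

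In the mitochondria, named carriers and isolated enzymes fell. Over all genes tested, 1.06% were called and 0.72% were called lower, and counts as small as those below cannot tell a list from these shares. Slc25a34, a mitochondrial carrier whose substrate is not established, had 48.03, 44.04, 44.64, 53.47 and 50.13 FPKM in iKO hearts, against 70.18, 82.58, 75.26, 69.70 and 62.03 FPKM in WT hearts. It was called in every alternative run (log2 difference -0.57 ± 0.08, limma adjusted p = 0.000194). Slc25a22, a glutamate carrier, was the other of 2 called among 38 solute carriers and had 8.77 to 11.18 FPKM in iKO hearts, against 11.65 to 19.36 FPKM in WT hearts (limma adjusted p = 0.0215), a call lost without RT3, RT4, RT6 or RT7. Of 83 nuclear-encoded respiratory chain genes 1 was called, Cox6b2, the isoform of a cytochrome c oxidase subunit best known from testis. It had 0.81, 0.56, 1.69, 1.44 and 0.53 FPKM in iKO hearts, against 2.51, 2.57, 3.63, 3.18 and 4.36 FPKM in WT hearts (log2 difference -1.10 ± 0.17, limma adjusted p = 0.000741). The median of the 83 genes was -0.02, with 64 below 0, and that of the 13 mitochondrially encoded genes was -0.06, with 11 below 0 and none called. Over all genes tested, 3734 of 12775 were below 0. Vwa8, a mitochondrial protein with a von Willebrand domain named after its values were seen, had 27.63, 29.98, 27.84, 29.87 and 29.67 FPKM in iKO hearts, against 40.61, 42.15, 42.06, 43.64 and 44.82 FPKM in WT hearts (log2 difference -0.54 ± 0.05, limma adjusted p = 1.37e-06).

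The tricarboxylic acid cycle list held 1 called gene of 26, where 1.06% of all tested genes were called. Such small counts, here and below, cannot tell a list from that share. The called gene was not a cycle enzyme. Me1, the cytosolic malic enzyme, which makes NADPH, had 37.56 to 42.40 FPKM in iKO hearts, against 49.33 to 51.35 FPKM in WT hearts (log2 difference -0.31 ± 0.05, limma adjusted p = 0.000767). Of 6 ketone body genes outside the fatty acid list, Acat1, the mitochondrial acetoacetyl-CoA thiolase, was called lower, at 165.1 ± 5.4 FPKM in iKO hearts and 186.8 ± 3.9 FPKM in WT hearts (SD, n = 5 each, limma adjusted p = 0.0106). Its call was lost when RT4 was left out together with RT1 or RT7. Fah, the enzyme of the last step of tyrosine breakdown, had 5.56, 4.10, 4.36, 3.92 and 4.62 FPKM in iKO hearts, against 8.42, 8.92, 9.47, 8.09 and 9.01 FPKM in WT hearts. It was the called member of 30 genes of other amino acid breakdown (log2 difference -0.83 ± 0.08, limma adjusted p = 1.12e-06). Branched-chain amino acid breakdown had the lowest median of the 49 lists, -0.09. Of its 23 tested members 20 were below 0, beside 3734 of all 12775 genes tested, and none was called. Its member with the smallest p, Pcca, a subunit of propionyl-CoA carboxylase, had 27.32 to 32.17 FPKM in iKO hearts and 30.44 to 35.30 FPKM in WT hearts (limma adjusted p = 0.151).

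**Figure D2:**
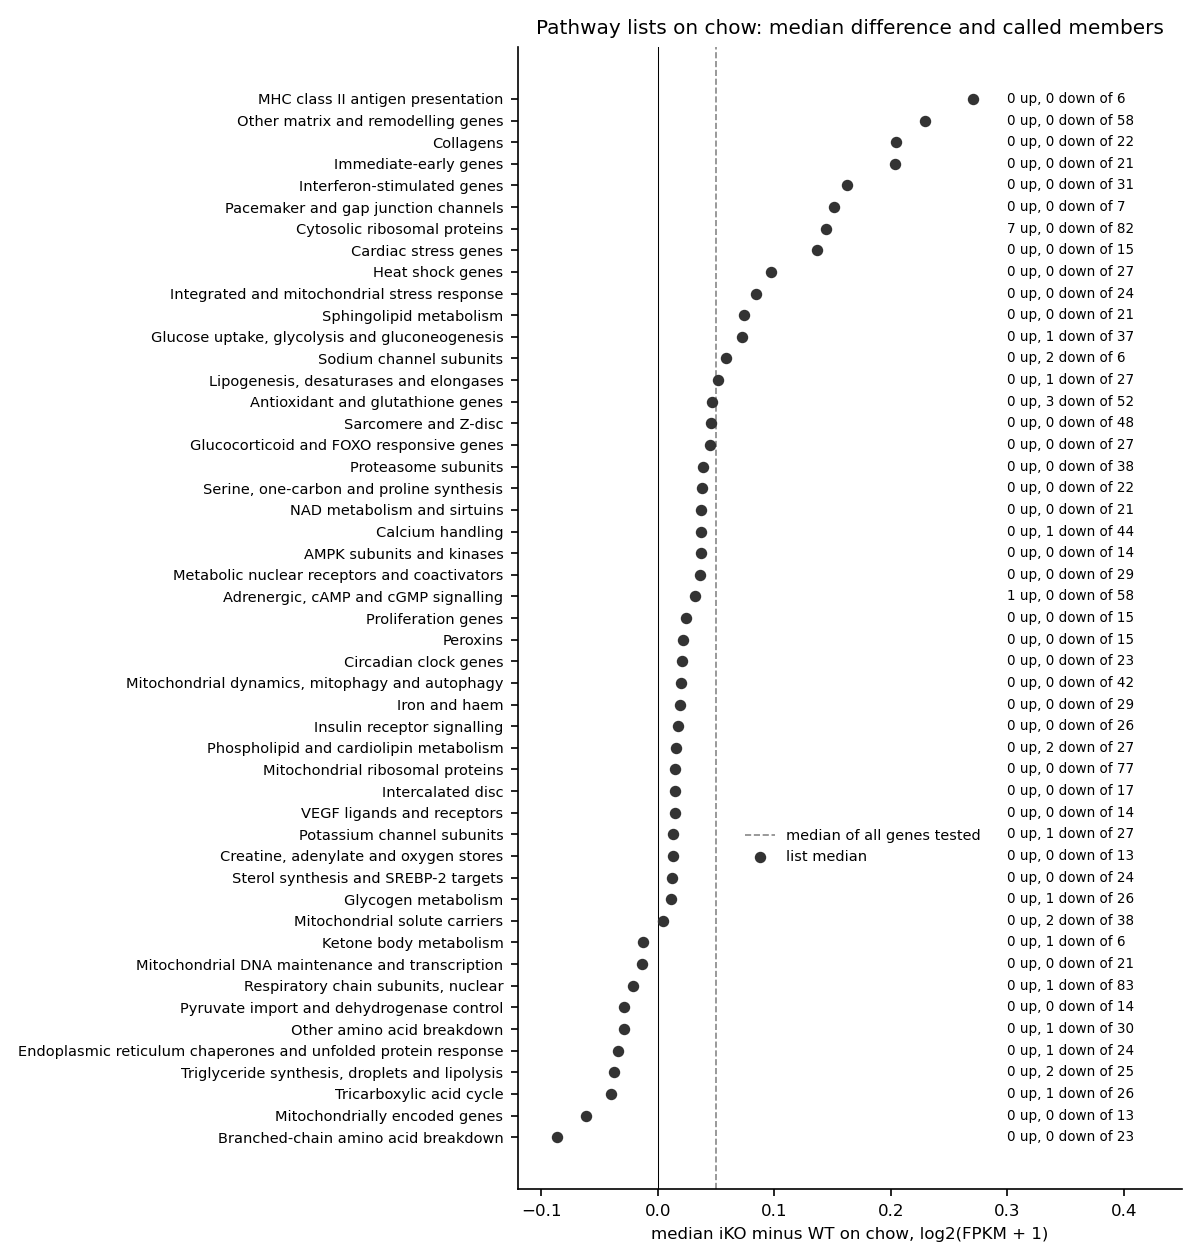
Median log2 difference, iKO minus WT on chow, of the tested members of 49 pathway lists (points), with the count of members called higher and lower at the right and the median of all genes tested as a dashed line. Most medians lie near the 0.05 of all genes, the immune, matrix, immediate-early, pacemaker and gap junction, cytosolic ribosomal and cardiac stress lists lie to its right, and calls are spread thinly over the lists.

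Among the genes called higher, the group with most members was that of the cytosolic ribosome. Of 82 tested ribosomal protein genes 7 were called higher and none lower, and 79 were above 0. Over all genes tested, 0.344% were called higher and 70.8% were above 0. The median log2 difference of the 82 genes was 0.14, against 0.05 for all genes. For 20 of the 82 the groups did not overlap, as for 265 genes higher in iKO (2.07% of those tested). Rps24 had 531.49, 535.53, 529.99, 535.33 and 500.90 FPKM in iKO hearts, against 477.24, 451.57, 462.63, 473.91 and 449.08 FPKM in WT hearts (log2 difference 0.19 ± 0.04, limma adjusted p = 0.0321). Rpl30 had 150.56 to 173.66 FPKM in iKO hearts and 130.35 to 145.45 FPKM in WT hearts (limma adjusted p = 0.0216), and Rps20 had 86.06 to 101.26 FPKM in iKO hearts and 66.43 to 82.12 FPKM in WT hearts (limma adjusted p = 0.0351). Rpl5 had 5.91 to 7.99 FPKM in iKO hearts and 5.05 to 6.06 FPKM in WT hearts, with overlap (limma adjusted p = 0.0367). Ribosomal protein genes have many processed pseudogenes, so that the split of their reads is uncertain.

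These calls depended on the scaling and on single libraries. The number of ribosomal genes called was 0 under median-of-ratios scaling, with the median at 0.08, and 0 under upper-quartile scaling, with the median at 0.07. These scalings brought the median of all genes to -0.001 and -0.008, so the list stayed above it. Adding the leading residual component to the model, which takes out spread within the groups and leaves the differences as they are, gave 19 calls. That component was taken from the residuals of the same libraries, so adjusted p under it can come out too small. Over all genes its calls rose from 136 to 417. The number was 0 without RT3, 0 without RT4, 1 without RT2, RT5, RT7 or RT10, and 2 without RT8. It was 5 without RT6, 6 without RT1 and 9 without RT9. The share of summed FPKM in ribosomal protein genes was 2.40%, 2.64%, 2.20%, 2.63% and 2.20% in iKO hearts, and 2.10% to 2.19% in WT hearts. RT4 and RT7, with the lowest mitochondrial share, had the highest ribosomal share, and the part of that composition in the result was not tested. Without both libraries none was called and the median was 0.08, with that of all genes at 0.01. None of the 77 mitochondrial ribosomal genes or 38 proteasome genes was called, where 1.06% of all tested genes were.

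Of the 44 genes called higher (0.344% of those tested), 36 were in no pathway list. Some of the higher calls outside the ribosome are described next, and whether they share a role was not tested. Ndrg4, a cytoplasmic protein required for normal heart growth in zebrafish, had 99.39, 103.17, 98.45, 99.58 and 90.88 FPKM in iKO hearts, against 64.05, 72.51, 65.72, 78.96 and 68.28 FPKM in WT hearts. It was called in every alternative run (log2 difference 0.49 ± 0.07, limma adjusted p = 0.000278). Tac1, the precursor of the neuropeptide substance P, had 3.77, 4.28, 4.24, 4.53 and 3.74 FPKM in iKO hearts, against 1.65, 3.82, 2.49, 1.82 and 1.86 FPKM in WT hearts (log2 difference 0.65 ± 0.12, limma adjusted p = 0.00688). Only WT RT3 reached the iKO range, and the call was lost with the 10 chow libraries only and when RT4 was left out together with RT1 or RT7. Prkg1, the cGMP-dependent protein kinase, was the called member of 58 adrenergic, cAMP and cGMP genes and had 3.29 to 5.38 FPKM in iKO hearts, against 2.55 to 3.10 FPKM in WT hearts (limma adjusted p = 0.0156). Its call was lost without RT4 or RT10.

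Spsb4, an adaptor of a ubiquitin ligase, had 2.47 to 3.79 FPKM in iKO hearts, against 1.32 to 2.16 FPKM in WT hearts (limma adjusted p = 0.00598), a call lost without RT4 and RT7. Syk, a tyrosine kinase of immune cell receptors, had 5.51 to 6.64 FPKM in iKO hearts, against 3.72 to 4.80 FPKM in WT hearts (limma adjusted p = 0.00928), and lost its call when RT4 was left out together with RT1 or RT7. Arrdc4, an arrestin family protein that limits glucose uptake, had 3.01 to 4.65 FPKM in iKO hearts, against 2.06 to 2.99 FPKM in WT hearts (limma adjusted p = 0.0177), and lost its call without RT4, RT5 or RT8. Masp1, a protease of the complement lectin pathway, was at 179% of the WT mean (limma adjusted p = 0.0472) and lost its call without RT2, RT3, RT4, RT5, RT6, RT7, RT8 or RT10.

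Genes close to A1cf on chromosome 19 held a larger share of calls than the genome. Within 5 Mb of A1cf, 7 of 53 tested genes were called (13.2%), against 1.06% of all tested genes. The window was centred on a gene known to differ, so its share is a description. A1cf and Lipo2 passed the filter on low values only through iKO libraries. Among the genes that reached 0.5 FPKM in at least 5 of the 10 WT libraries, a count added after the values were seen, 5 of 50 in the window were called, against 133 of all 12335 such genes (1.08%). Higher in iKO were A1cf, Lipo2, Prkg1 and Rnls, and lower were Vldlr, Kcnv2 and Pank1. A1cf, which binds RNA and takes part in editing the apolipoprotein B message in liver, had 1.20, 1.31, 0.47, 0.71 and 0.76 FPKM in iKO hearts, and was listed at 0 in 4 WT hearts and at 0.01 FPKM in RT1 (limma adjusted p = 2.61e-05). Lipo2, a lipase family gene with close paralogues beside it, had 3.13, 2.93, 2.05, 1.74 and 1.68 FPKM in iKO hearts, against 0.08, 0.08, 0.11, 0.12 and 0.06 FPKM in WT hearts (limma adjusted p = 0.000677). Rnls, which encodes renalase, had 3.96 to 5.61 FPKM in iKO hearts, against 2.73 to 3.57 FPKM in WT hearts (limma adjusted p = 0.00809), a call lost when RT4 was left out together with RT1 or RT7. The median of the 53 genes was 0.05, the same as over all genes. The transgene's insertion site is not given in the sources used here, and genes of this window that differ with the Cre or with linked alleles cannot be told apart from those that differ with ACC2. Around Acacb itself, 2 of 98 genes within 5 Mb were called (2.04%), Acacb and Gm15787.

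**Figure D3:**
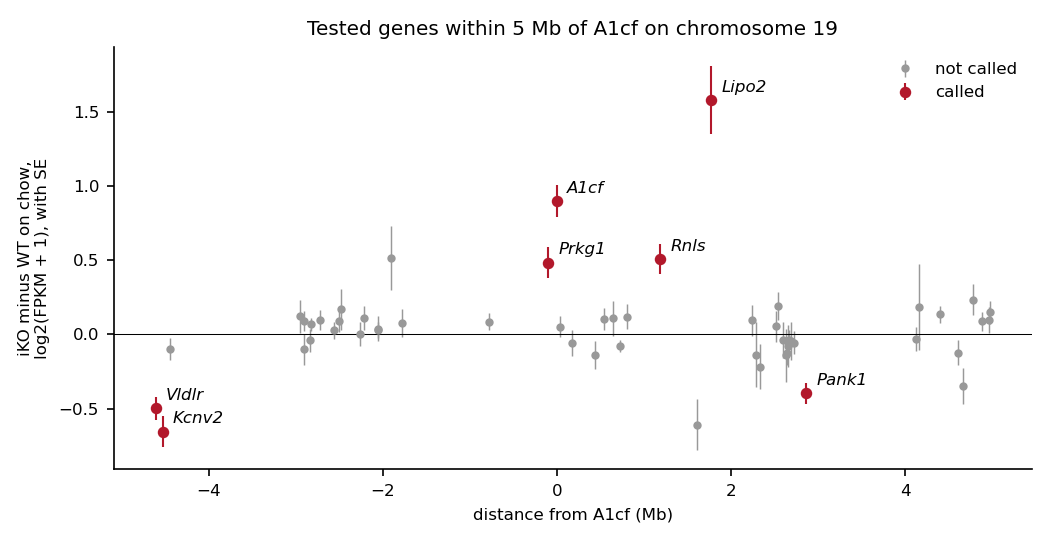
Difference iKO minus WT on chow in log2(FPKM + 1), with SE, for the 53 tested genes within 5 Mb of A1cf, by distance from A1cf in Mb. The 7 called genes (red, named) lie on both sides of A1cf and go both ways. Most others (grey) lie near 0, with Lipo3 at -0.61, Il33 at 0.51 and 1500017E21Rik at -0.35 farther out and not called.

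Matrix, immune and fibroblast genes had medians above 0 in iKO hearts without a single call, where 1.06% of all tested genes were called. The medians of the matrix, fibroblast, macrophage and MHC class II lists moved with RT4 or RT7. That of the interferon-stimulated genes fell from 0.16 to 0.07 without both libraries. The median log2 difference was 0.20 for 22 collagens, 0.23 for 58 other matrix and remodelling genes, 0.16 for 31 interferon-stimulated genes, 0.20 for 21 immediate-early genes and 0.27 for 6 genes of MHC class II presentation. All 12 fibroblast markers were above 0, with a median of 0.38, and none was called. With the residual component in the model 6 of them were called higher, as were 15 of the other matrix genes, 2 collagens and 3 interferon-stimulated genes. As described for the ribosomal genes, that setting raised the calls over all genes from 136 to 417, and its adjusted p can be too small. On HFD the medians were 0.34 for the fibroblast markers, 0.14 for the collagens and 0.21 for the other matrix genes, with none called and all genes at 0.06. The summed FPKM of the fibroblast markers on chow ranged from 769 to 1622 in iKO hearts and from 700 to 843 in WT hearts. It was highest in RT4, followed by RT2 at 1366, while RT7 had 939, RT9 824 and RT6 769. Without RT4 the median of the fibroblast markers was 0.20, with all 12 still above 0, that of the collagens 0.09 and that of the other matrix genes 0.11. In tissue RNA, more cells of a type and more RNA per cell cannot be told apart. Of 15 macrophage markers 13 were above 0, where 70.8% of all genes were. Summed FPKM of these markers was 205 to 322 in iKO hearts and 204 to 234 in WT hearts, and their median difference was 0.22. Without RT4 that median was 0.10, and without RT4 and RT7 it was 0.04. All 5 erythroid markers tested were above 0, with a median of 0.37 on chow and -0.07 on HFD, and none was called. Their summed FPKM was 2062 to 3061 in iKO hearts and 1605 to 2515 in WT hearts. Markers of endothelium (median 0.03), smooth muscle (0.00) and cardiomyocytes (0.00) held no call. In the MHC class II list, Cd74 had 46.88, 49.90, 48.08, 109.10 and 46.94 FPKM in iKO hearts, against 35.58, 51.34, 58.70, 39.68 and 49.43 FPKM in WT hearts. The high value is that of RT7, and without RT7 the list's median was 0.05. The immediate-early genes were higher in every iKO library than in any WT library by their mean centred log2(FPKM + 1), which was 0.07 to 0.41 in iKO hearts and -0.27 to 0.07 in WT hearts, with iKO RT6 at 0.0747 and WT RT3 at 0.0657 nearest to each other. These scores were taken from FPKM without further scaling. The median-of-ratios factors were 1.014 to 1.141 in iKO and 0.99 to 1.044 in WT libraries. Whether the libraries stay apart under that scaling was not tested. Under it the median difference of the immediate-early genes was 0.15, with 19 of 21 above 0. Without RT4 and RT7, and without that scaling, their median difference was 0.14. Junb, the immediate-early gene with the smallest p, had 9.21, 9.23, 6.25, 6.35 and 5.54 FPKM in iKO hearts, against 4.43, 4.84, 4.15, 3.24 and 4.39 FPKM in WT hearts, without overlap, and did not pass (limma adjusted p = 0.0902).

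**Figure D4:**
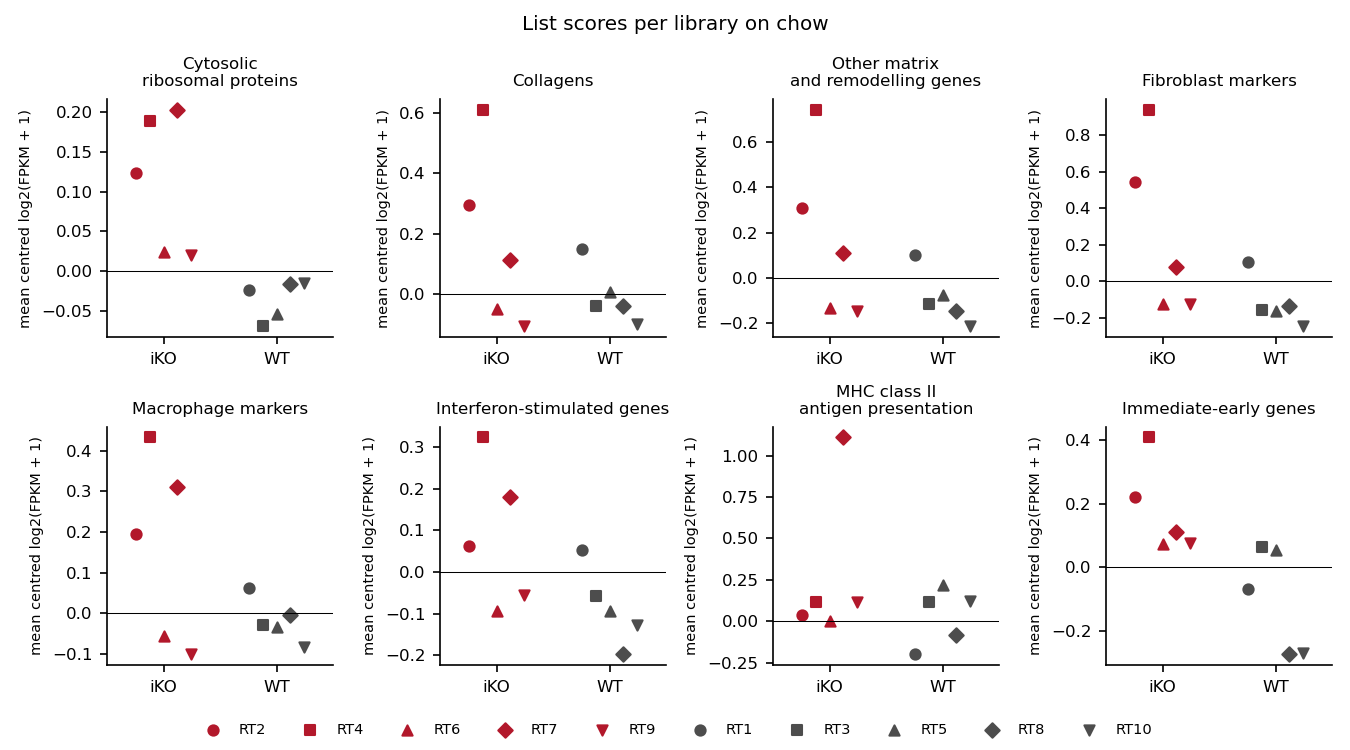
Mean centred log2(FPKM + 1) of the members of 8 lists in each chow library, with 5 iKO libraries (red) left of 5 WT libraries (grey) and a marker shape for each library. In the matrix, collagen, fibroblast and macrophage panels RT4 is the highest iKO library and RT6 and RT9 lie within or just below the WT range, while the ribosomal panel has all iKO points above all WT points.

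The stress and turnover lists below held 1 call, where 1.06% of all tested genes were called. Counts this small cannot tell a quiet list from that share. Of 24 chaperone and unfolded protein response genes 1 was called lower, Hspa5, the main chaperone of the endoplasmic reticulum, with 168.02 to 201.52 FPKM in iKO hearts and 196.63 to 225.44 FPKM in WT hearts (limma adjusted p = 0.0483). That call was lost without RT1, RT2, RT3, RT5, RT6, RT9 or RT10. No gene was called among 27 heat shock genes, 24 integrated and mitochondrial stress genes, 42 genes of mitochondrial dynamics, mitophagy and autophagy, 23 circadian clock genes or 29 metabolic nuclear receptors and coactivators. The medians of these lists were 0.10, 0.08, 0.02, 0.02 and 0.04 in that order, against 0.05 for all genes. That of the chaperone and unfolded protein response genes was -0.03.

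The HFD contrast compares other mice than the chow contrast. Both contrasts took the filter and the estimate of spread from all 20 libraries, so their calls are not fully independent. With the 10 chow libraries only, 95 genes were called on chow, 87 of them among the calls of the main fit. The same contrast on HFD called 22 genes (0.172% of those tested), 11 of them among the 107 chow calls outside the fatty acid list. Of the 63 lower genes 56 were below 0 on HFD, where 25.6% of all genes were below 0. Of the 44 higher genes 43 were above 0, where 74.4% of all genes were. For 104 of the 107 the difference was smaller on HFD than on chow, with the genes having been chosen by their size on chow. Genes called on both diets included Fbp2, Ephx2, Dbi and Gm34302 among the lower and Ndrg4, Prkg1 and Ten1 among the higher. The chow call of Gm34302 was lost with the 10 chow libraries only, and that of Ten1 when RT4 was left out together with RT1 or RT7. Prkg1 had 4.28 to 6.70 FPKM in iKO hearts and 2.12 to 2.92 FPKM in WT hearts on HFD (limma adjusted p = 0.00175).

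**Figure D5:**
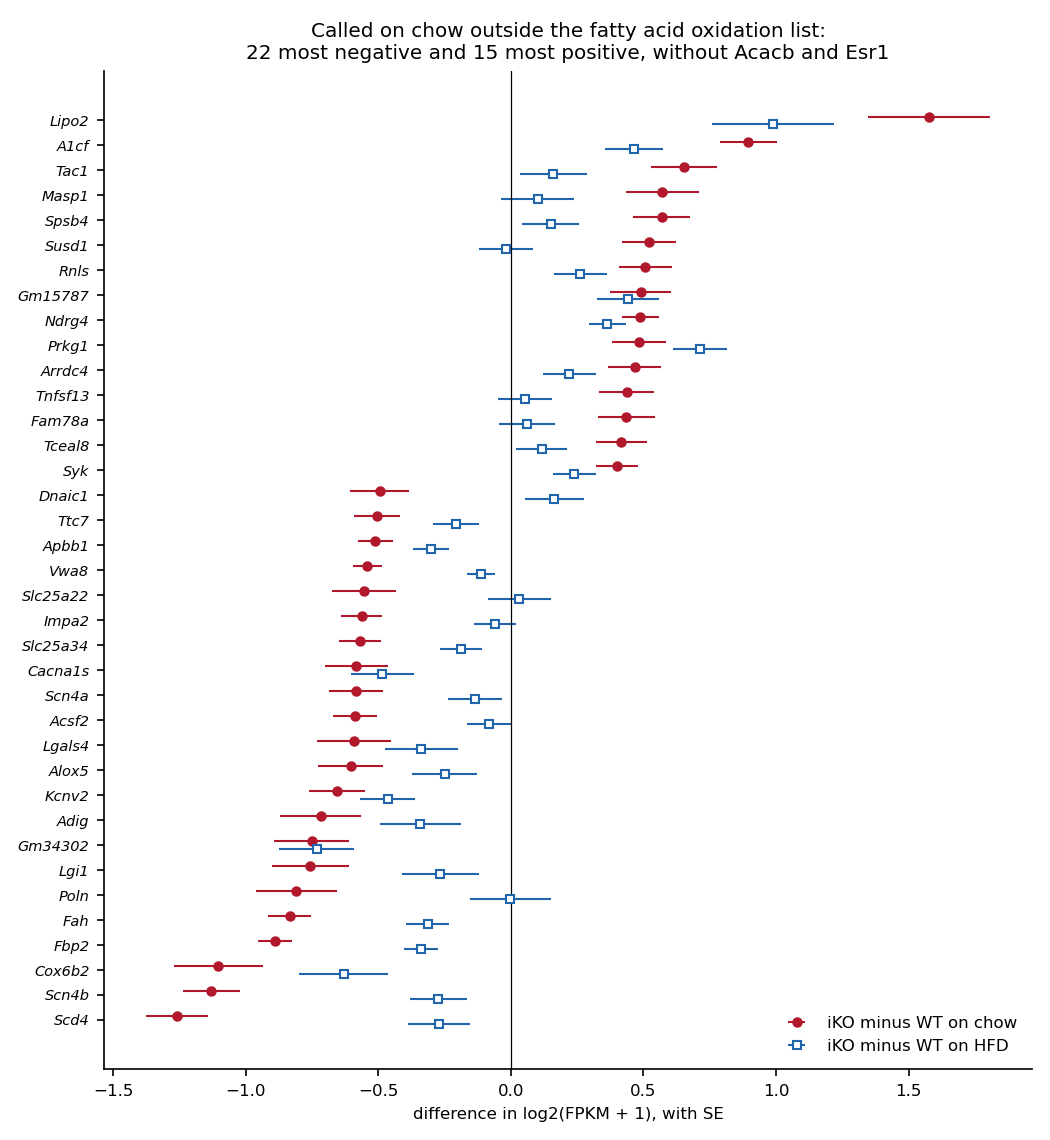
Difference iKO minus WT in log2(FPKM + 1), with SE, on chow (filled red) and on HFD (open blue) for 22 genes with the most negative and 15 with the most positive difference among those called on chow outside the fatty acid list. Most HFD points lie on the same side of 0 and nearer to it, while Prkg1 lies farther out on HFD.

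The test of the difference between the diets called 4 of the 12775 genes (0.0313%), Fbp2, Scn4b, Scd4 and Vwa8, each with the larger genotype difference on chow. Fbp2 on HFD had 20.53, 20.79, 20.39, 20.86 and 22.54 FPKM in iKO hearts, against 29.24, 22.68, 27.82, 26.95 and 28.05 FPKM in WT hearts, so that both genotypes were above their chow levels and still apart. Its genotype difference was -0.89 on chow and -0.34 on HFD, and the difference between them was -0.55 ± 0.09 (SE, limma adjusted p = 0.0345). Scn4b on HFD had 17.97 to 24.50 FPKM in iKO hearts and 22.72 to 27.52 FPKM in WT hearts, with the 2 genotypes overlapping (difference between diets -0.86 ± 0.15, limma adjusted p = 0.0466). Scd4 on HFD had 1.43 to 2.76 FPKM in iKO hearts and 2.34 to 2.66 FPKM in WT hearts, where all WT hearts lay below the WT hearts on chow (difference between diets -0.99 ± 0.17, limma adjusted p = 0.0345). Vwa8 on HFD had 45.30 to 50.25 FPKM in iKO hearts and 44.98 to 56.72 FPKM in WT hearts (difference between diets -0.43 ± 0.08, limma adjusted p = 0.0466). These calls were near the threshold. Leaving out 1 chow library gave 0 calls without RT1, RT3, RT4, RT5 or RT8, 1 without RT2, RT6 or RT9, 2 without RT10 and 5 without RT7. Both other scalings gave 0 calls.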

How the data were processed

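Frozen left ventricle gave RNA with an integrity number above 8, per the labels' protocols, and TruSeq libraries of poly(A) RNA were read from 1 end for 100 nt, with 50 M reads stated per sample. The authors deposited FPKM per gene, 1 table per library, printed to 2 decimals. The submitters' processing notes name Bowtie2, RSEM, DESeq2 and the build mm9. Of the 25052 gene IDs 24938 are in GENCODE M21, which conflicts with mm9, and coordinates are GRCm38 by ID match. No 2 libraries were identical, and their log2 values correlated at 0.983 or more.

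FPKM are not counts, so no count test was run. Genes with at least 0.5 FPKM in at least 5 of the 20 libraries were tested on the log2(FPKM + 1) scale, where changes of low genes come out too small. Limma 3.58.1 (R 4.3.3; intensity trend, robust moderation) modelled the 20 libraries by 4 group means, and Benjamini-Hochberg adjusted p-values over the 12775 genes were called below 0.05. Errors of log2 differences are limma's SE. The fit was run on simulated data with known changes, where 3.77% of 159 calls were false. The noise there was drawn for each gene separately, without effects shared across a library. It therefore cannot show the rate of false calls in these libraries. Groups come from the genotype and diet labels. No group or covariate beyond genotype and diet was labelled. Assigned reads were estimated in Python 3.11.15 from single-read steps in the FPKM of 133 to 199 short single-transcript genes a library, of which 57.6% to 73.0% came out whole to within 0.05 reads, so depth is approximate.

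Pathway and marker lists were described by counts and medians. Named genes were Acacb, Acaca and Esr1, the 15 largest increases and 15 largest decreases among calls outside the fatty acid list at a mean log2(FPKM + 1) no lower than 1, 3 calls with a lower mean, up to 4 called members of each pathway list by smallest p, and in a list without calls its member with the smallest p. For 2 genes no values are given. Not all of the named genes are mentioned, and genes outside the rule are marked. Members and lists were chosen with earlier results of these data known. Alternatives were other pseudocounts, filters, scalings, sets of libraries, variance models and weights, and a residual component as covariate.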

Additional observations from a re-analysis of the deposited data

Results flagged for a closer look

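In 8 cases 1 chow library lay far from the other 4 of its group, by Dixon's ratio at its 95% limit. Chance flags about 1 in 20 groups, which comes to about 10 of the 204 groups screened, so 8 is no excess. Of the iKO libraries, RT7 was the high one for Alox5 (4.18 FPKM, the others 2.0 to 2.50), Cd74 (109.1 FPKM, the others 46.88 to 49.90), Pcca (32.17 FPKM, the others 27.32 to 28.67) and Pcna, a replication clamp (26.80 FPKM, the others 22.99 to 23.90). RT4 was the high one for Ncoa3, a nuclear receptor coactivator (7.06 FPKM, the others 5.31 to 5.61). The low ones were RT6 for Acaca (1.98 FPKM, the others 2.58 to 2.80) and RT9 for Rps24 (500.9 FPKM, the others 529.99 to 535.53). In WT hearts A1cf was listed at 0.01 FPKM in RT1, the smallest value above 0 that the tables can print, and at 0 in the others.

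In 4 genes the genotype difference on chow differed from that on HFD by the interaction test in limma. The differences, chow minus HFD on the log2 scale, were -0.5495 for Fbp2 (adjusted p = 0.0345), -0.8559 for Scn4b (adjusted p = 0.0466), -0.9866 for Scd4 (adjusted p = 0.0345) and -0.4292 for Vwa8 (adjusted p = 0.0466). Over 21 alternatives their highest adjusted p was 0.317, 0.234, 0.180 and 0.180 in that order of genes, and the sign was negative in each.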

How the results depend on the processing

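The 92 lower calls ranged from 65 to 133 over 22 alternatives. The 44 higher calls became 24 with the 10 chow libraries only, 297 with the first residual component as covariate, 22 with no filter, 18 under median-of-ratios scaling, 16 under upper-quartile scaling, 16 without RT1 and RT4, 9 without RT4 and RT7, and 18 to 61 when 1 library was left out. The 4 interaction calls became 2 with the residual component, 0 with no filter, 0 without trend and robust moderation, 0 under median-of-ratios scaling, 0 under upper-quartile scaling, 0 without RT1 and RT4, 0 without RT4 and RT7, and 0 to 5 when 1 library was left out. The cause was not tested. No result named changed sign past its threshold. Of the calls, 110 of 136 were shared with median-of-ratios scaling and 108 with upper-quartile scaling. The WT mice are littermates, but no litter or pair is labelled, so no analysis by litter or pair was possible. Depth limits genes of low FPKM most in RT7, at about 12.5 M assigned reads.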

Other observations

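Lipo2 was not tied to genotype alone on HFD. It had 1.65, 2.99, 2.45, 1.56 and 1.57 FPKM in iKO hearts on HFD, against 0.07, 0.12, 1.54, 1.39 and 0.07 FPKM in WT hearts on HFD, so that 2 WT hearts (RT16 and RT18) lay near the lowest iKO hearts. On chow all 5 WT hearts were at 0.12 FPKM or less. A1cf, 1.8 Mb away on chromosome 19, was listed at 0 in all 5 WT hearts on HFD, RT16 and RT18 included, and had 0.11 to 0.66 FPKM in iKO hearts on HFD. Lipo3, beside Lipo2 and named after its values were seen, went the other way on chow, with 1.51, 1.96, 3.61, 3.05 and 3.48 FPKM in iKO hearts, against 4.81, 4.22, 4.33, 4.71 and 4.52 FPKM in WT hearts (limma adjusted p = 0.105, not called). Both are close paralogues, and the split of reads between them is uncertain.

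Immune receptor genes in no list were among the small higher calls and are named after their values were seen. Tlr3, a sensor of double-stranded RNA, had 3.43 to 4.36 FPKM in iKO hearts, against 2.88 to 3.16 FPKM in WT hearts (limma adjusted p = 0.0204), and lost its call without RT2, RT4, RT5 or RT10. Il13ra1, a receptor subunit for interleukin-13, had 20.04 to 24.03 FPKM in iKO hearts, against 15.84 to 18.31 FPKM in WT hearts (limma adjusted p = 0.0142), and lost its call without RT3 or RT4.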
